A study of Mus musculus with 3 samples.

Results

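The cytokine receptor chains of lymph node stroma were taken as 10 genes of the 51912 in the deposited tables. They were chosen by symbol as chains that bind IL-6 family cytokines (Il6st, Osmr, Il11ra1), IL-4 and IL-13 (Il4ra, Il13ra1), interferon-γ (Ifngr1, Ifngr2), type I interferon (Ifnar1, Ifnar2) and IL-1 (Il1r1). Their RNA was counted in 3 libraries of single lymph node cells made with the 10x Genomics 3′ chemistry, which counts unique molecular identifiers (UMIs, tags of single captured RNA molecules) at the 3′ end of a transcript. The cells came from C57BL/6 mice carrying a transgene in which Cxcl13 sequences drive Cre and the red protein tdTomato. They were sorted as live, Podoplanin+, CD31-, CD45- and tdTomato+. The sort thus kept stroma with activity of the Cxcl13 promoter, CXCL13 being the chemokine that draws B cells into follicles. The 2-IC group, with 2 libraries (replicate 1 and replicate 2), came from mice given 2 antigen immune complexes (ICs), the first 7 days and the last 24 hours before analysis. These times are those of the titles. The short descriptions name 24 hours for replicate 1 and 7 days for replicate 2, so the labels do not settle whether both are replicates of the same times. The 1-IC group, with 1 library, came from mice given 1 IC 24 hours before. All groups thus shared the transgene, the sort and, by the titles, an IC 24 hours earlier, and no library from mice without an IC was analysed here. Lymph nodes of several mice were pooled, so each library counted as 1 sample. The p-values set a difference between groups of cells against how much that difference varied between these libraries.

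Receptors of this kind are assembled from chains that are shared between cytokines. Il6st encodes gp130, which signals for IL-6, IL-11, oncostatin M and LIF, while Osmr and Il11ra1 give the receptor its specificity, and Il4ra pairs either with the common γ chain Il2rg or with Il13ra1. Most of the chains activate JAK kinases and STAT factors, whereas the IL-1 receptor activates NF-κB through MyD88. In lymph nodes, stromal cells of the follicle, the subcapsular margin, the T zone border and the medulla are known to form separate niches for immune cells.

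The deposited tables held 5486 barcodes, of which 2243 were retained by the filters on genes, mitochondrial UMIs and contaminant genes, 1526 and 391 from the 2-IC replicates 1 and 2 and 326 from the 1-IC library. Values by library are given in this order throughout. Total UMIs in these tables were 20607903, 12788101 and 3766526, and the median per retained barcode was 4700.5, 14732 and 5979. Retained cells were placed in stromal types by raw UMIs of 1 gene each, in a fixed order. The first gate was Cr2 (complement receptor 2, of follicular dendritic cells, FDCs), with 149 cells. Next came Madcam1 (an adhesion molecule of marginal reticular cells), with 44 cells. Then came Tnfsf11 (RANKL, of marginal and interfollicular reticular cells), with 593 cells, all without a Madcam1 UMI. After these came Fmod (a proteoglycan, of T-B border reticular cells), with 256 cells, and Inmt (a methyltransferase, of medullary reticular cells), with 472 cells. Another 729 cells were in no gate. The smallest sum, the Madcam1 gate of 2-IC replicate 2, held 7 cells.

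The gates were compared with marker lists. These lists hold the gate genes themselves, which the gating sets high in their own gate and at 0 in later gates. The sums are thus not independent of the gates. Markers of FDCs summed to 25849 to 45162 counts per 1000000 UMIs of a sum (CPM) in the Cr2 gate, to 7169 to 11011 CPM in the Tnfsf11 gate and to 3757 to 4922 CPM in the Inmt gate. They also summed to 30092 to 30904 CPM in the Madcam1 gate, which this list did not separate from the Cr2 gate. Markers of interfollicular cells (Tnfsf11, Ch25h) summed to 268 to 407 CPM in the Tnfsf11 gate. Their sum was higher, at 503 to 782 CPM, in the Madcam1 gate. Markers of marginal reticular cells reached 5541 to 8635 CPM in the Madcam1 gate, those of T-B border cells 12084 to 15770 CPM in the Fmod gate and those of medullary cells 1438 to 2007 CPM in the Inmt gate. The T-B border list was not confined to its own gate, with 1371 to 10316 CPM in the Madcam1 gate, 4039 to 7546 CPM in the Tnfsf11 gate and 2097 to 7051 CPM in the Inmt gate. Nor was the marginal list, with 4220 to 4892 CPM in the Tnfsf11 gate. The medullary list held 606 to 1219 CPM in the Tnfsf11 gate and 424 to 933 CPM in the Fmod gate. Markers of B cells summed to 74.6 to 393 CPM in the Cr2 gate, against 18130 to 65791 CPM in barcodes of B cells from the same tables, and the defining genes Cd79a and Cd79b were at 0 because the filter removes them. Myeloid markers summed to 23.9 to 189 CPM in the Cr2 gate with Itgax at 0, and T cell markers to 5.96 to 27.3 CPM. Between 2-IC replicate 1 and 2-IC replicate 2, 76 barcodes were shared, 15 of them retained.

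Of the members, Ifnar2 (chr16:91372783-91405589), Ifnar1 (chr16:91485238-91507441) and Ifngr2 (chr16:91547072-91565623) are neighbours on the plus strand of chromosome 16 in GRCm38. Il4ra lies at chr7:125552120-125579474 and Il11ra1 at chr4:41699989-41769474, both on the plus strand. Il11ra1 overlaps Galt on the same strand, so its reads may be split with that gene, and its near copy Il11ra2 had 0 UMIs. RefSeq promoter windows (GRCm38.p6, 250 bases before to 50 after a start) were found for all 10 members, in 12 windows. They were searched on both strands for TTCNNNGAA (the site of most STAT dimers), TTCNNNNGAA (the spacing that STAT6 prefers), GAAANNGAAA (the core of the interferon-stimulated response element) and TATAAA, which are held by 8.30%, 6.95%, 3.44% and 13.6% of 32851 such windows. In 9 of the 12 windows none was found. The windows are shown for Il4ra and Il11ra1, the members that varied most between the stromal types, and for the chromosome 16 neighbours, which held the only matches, printed 5′ to 3′ with matches in capitals.
Il4ra, chr7:125552021-125552320: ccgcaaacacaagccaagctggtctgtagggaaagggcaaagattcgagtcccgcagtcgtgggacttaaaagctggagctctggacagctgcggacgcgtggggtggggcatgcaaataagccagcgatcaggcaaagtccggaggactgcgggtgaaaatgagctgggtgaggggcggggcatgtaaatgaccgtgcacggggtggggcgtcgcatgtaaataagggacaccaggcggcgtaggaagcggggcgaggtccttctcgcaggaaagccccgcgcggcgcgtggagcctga
Il11ra1, chr4:41760193-41760492: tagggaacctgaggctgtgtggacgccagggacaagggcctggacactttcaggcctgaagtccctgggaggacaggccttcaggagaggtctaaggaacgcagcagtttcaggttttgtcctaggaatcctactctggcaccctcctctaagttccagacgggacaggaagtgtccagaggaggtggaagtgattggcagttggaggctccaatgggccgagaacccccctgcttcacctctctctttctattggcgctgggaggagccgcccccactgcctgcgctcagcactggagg
Ifngr2, chr16:91546809-91547108: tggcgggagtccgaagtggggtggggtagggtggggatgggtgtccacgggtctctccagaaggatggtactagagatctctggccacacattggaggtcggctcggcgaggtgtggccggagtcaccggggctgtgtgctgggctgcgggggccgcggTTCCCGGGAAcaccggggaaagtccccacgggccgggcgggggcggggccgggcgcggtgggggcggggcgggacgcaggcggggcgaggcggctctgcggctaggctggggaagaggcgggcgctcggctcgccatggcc
Ifnar1, chr16:91484965-91485264: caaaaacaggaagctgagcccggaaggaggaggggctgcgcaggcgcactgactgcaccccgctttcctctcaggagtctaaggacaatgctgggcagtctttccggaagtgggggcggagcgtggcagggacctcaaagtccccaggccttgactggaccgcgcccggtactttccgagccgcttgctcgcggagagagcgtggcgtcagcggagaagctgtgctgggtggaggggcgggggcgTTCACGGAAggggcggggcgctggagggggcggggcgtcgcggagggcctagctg
Ifnar2, chr16:91372533-91372832: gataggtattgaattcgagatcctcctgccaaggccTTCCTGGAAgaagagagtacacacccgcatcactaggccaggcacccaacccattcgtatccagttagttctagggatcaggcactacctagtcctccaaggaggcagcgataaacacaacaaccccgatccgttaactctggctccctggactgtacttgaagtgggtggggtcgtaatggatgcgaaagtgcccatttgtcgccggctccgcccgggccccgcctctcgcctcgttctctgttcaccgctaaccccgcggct
Ifngr2 held TTCNNNNGAA with its first base at -91 from the start, Ifnar1 held TTCNNNGAA at -5 and Ifnar2 held TTCNNNGAA at -214. The GC content was 62.0% for Il4ra with 25 CpG dinucleotides, 59.3% for the first window of Il11ra1 with 7 (57.7% and 3 in its second window, not shown), and 74.3% for Ifngr2 with 31, against a median of 52.7% over all windows. A match describes letters only, and these data did not measure binding.

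To ask which chains vary between stromal types, UMIs were summed per library and gate, and the 15 sums were tested with edgeR's quasi-likelihood test with the library as a block. Across the 5 gates 6 of 10 members differed (Benjamini-Hochberg adjusted p under 0.05), against 28.2% of all 8078 genes tested. These were Il11ra1 (adjusted p = 4.02e-10), Il4ra (1.58e-09), Il1r1 (3.81e-05), Ifngr2 (4.17e-05), Il6st (0.00137) and Ifngr1 (0.0148). Il13ra1 (0.17), Ifnar2 (0.369), Osmr (0.404) and Ifnar1 (0.777) did not pass. All 10 members were detected in every gate of every library. Without the library block, which the fit used because all gates of 1 library were cut from 1 sorted suspension, 3 of 10 members differed (Il11ra1, Il4ra and Ifngr2), and the calls over all genes went from 2275 to 1212 of 8078. Fewer cells with a transcript and less transcript per cell give the same sum and were not separated by it.

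**Figure D1:**
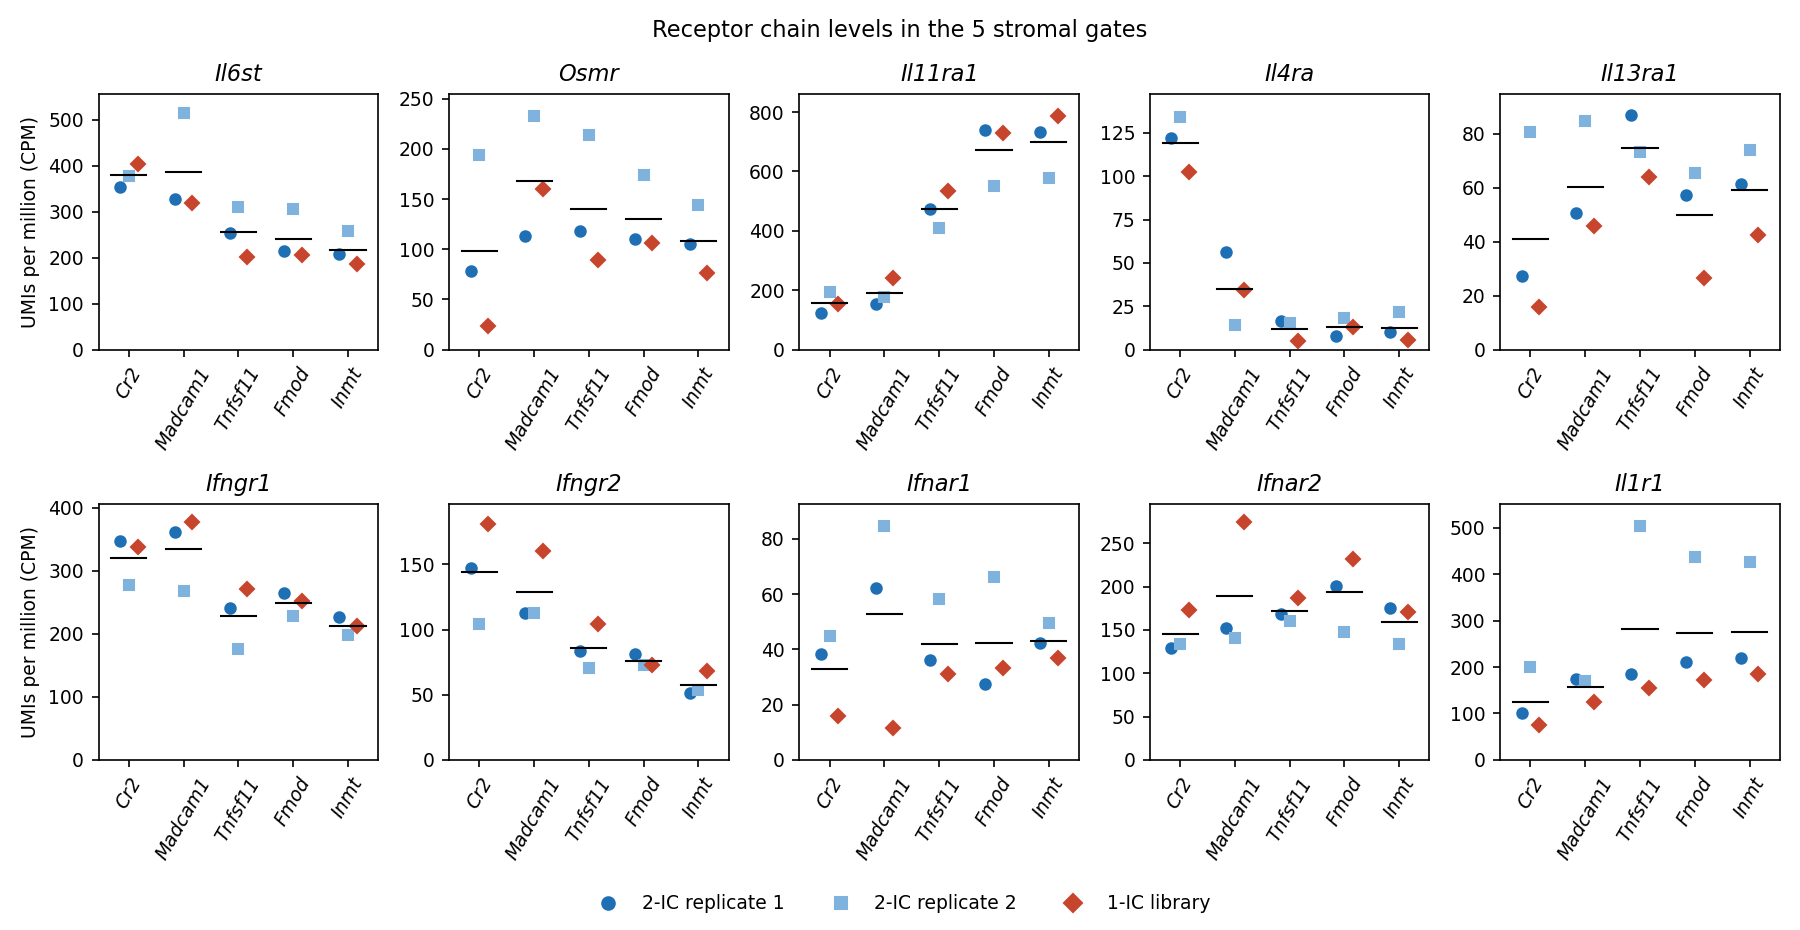
Level of each receptor chain (CPM, linear axis) in the 5 gates, with 1 point per library and a line at the mean of the 3 libraries. Il4ra stood at 102 to 134 CPM in the Cr2 gate and at most at 56.4 CPM in any other gate, while Il11ra1 was lowest in the Cr2 and Madcam1 gates.

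Il4ra, the IL-4 receptor α chain that binds IL-4 and, with Il13ra1, IL-13, was a chain of the Cr2 gate. It stood there at 122, 134 and 102 CPM in the 2-IC replicates and the 1-IC library. In the Madcam1 gate these libraries held 56.4, 14.1 and 34.3 CPM, in the Tnfsf11 gate 16.3, 15.5 and 4.68 CPM, in the Fmod gate 7.84, 18.1 and 13.3 CPM and in the Inmt gate 10.3, 21.4 and 5.67 CPM. Each value of the Cr2 gate was above every value of the other gates, and the last 3 gates overlapped. The level in the Cr2 gate was higher than in the other gates by 2.90 ± 0.24 on the log2 scale (SE, adjusted p = 3.12e-10), and higher than in the Madcam1 gate alone by 1.88 ± 0.41 (adjusted p = 0.00431). The Madcam1 gate came second in the order but was not separated from the Tnfsf11 gate (1.33 ± 0.52, adjusted p = 0.143). Thinned to 2000 UMIs, 23.3% ± 2.41 (SD, n = 3 libraries) of cells of the Cr2 gate had an Il4ra UMI, against 2.38% ± 0.947 in the Tnfsf11 gate and 3.10% ± 1.95 in the Inmt gate. Without thinning these shares were 46.2%, 11.7% and 11.1%.

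Il4ra is also a B cell gene, and RNA of B cells was present at a low level in the Cr2 gate. In B cell barcodes Il4ra stood at 44.6, 74.5 and 51.9 CPM, below the Cr2 gate of the same library in 3 of 3 libraries. Cells of the Cr2 gate with no UMI of other B cell, myeloid or T cell markers (51, 18 and 26 cells) held 141, 76.5 and 104 CPM, and the remaining cells (32, 9 and 13) held 95.8, 270 and 98.7 CPM. The level was thus lower without such cells in 2-IC replicate 2 and not lower in the other libraries. With such barcodes left out of every gate, a setting chosen after seeing the data, the difference of the Cr2 gate was 2.44 (adjusted p = 3.57e-06).

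Il13ra1, the partner of Il4ra in the receptor that also binds IL-13, did not share this pattern. It stood in the Cr2 gate at 27.3, 80.5 and 15.7 CPM and in the Tnfsf11 gate at 86.9, 73.4 and 63.9 CPM, so the gates overlapped through 2-IC replicate 2. The Cr2 gate was lower than the Tnfsf11 gate (-0.84 ± 0.28, adjusted p = 0.0286), while its difference from all other gates together did not pass (-0.60 ± 0.28, adjusted p = 0.131). Per library, 4.47, 1.67 and 6.50 UMIs of Il4ra were counted for each UMI of Il13ra1 in the Cr2 gate, against 0.187, 0.212 and 0.0732 in the Tnfsf11 gate. Cells with UMIs of both chains were rare after thinning, 1 of 135 cells in the Cr2 gate and 0 of 566 in the Tnfsf11 gate, which is too few to compare with chance pairing.

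Il2rg, the common γ chain that pairs with Il4ra for IL-4 alone, was looked at after its values were seen. It stood at 120, 74.5 and 74.6 CPM in the Cr2 gate and at 62.1, 134 and 80.0 CPM in the Madcam1 gate, against at most 7.79 CPM in any Tnfsf11, Fmod or Inmt sum. Neither of the first 2 gates overlapped with the other 3. The difference was 3.68 ± 0.31 for the Cr2 gate (adjusted p = 4.68e-10) and 3.44 ± 0.44 for the Madcam1 gate (adjusted p = 7.27e-06). B cell barcodes held more Il2rg, at 204, 297 and 245 CPM, and in cells of the Cr2 gate with no UMI of the other immune markers it stood at 119, 85.0 and 45.7 CPM.

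Among the chains for IL-6 family cytokines, Il11ra1 and Il6st differed between the stromal types in opposite directions, and Osmr did not pass the test. Il11ra1, the chain that binds IL-11, stood in the Cr2 gate at 124, 194 and 153 CPM and in the Madcam1 gate at 152, 176 and 240 CPM. It stood at 474, 410 and 535 CPM in the Tnfsf11 gate, at 740, 550 and 729 CPM in the Fmod gate and at 734, 579 and 788 CPM in the Inmt gate. The first 2 gates overlapped each other and lay below every other sum. Il11ra1 was lower in the Cr2 gate (-1.49 ± 0.18, adjusted p = 2.26e-07) and in the Madcam1 gate (-1.39 ± 0.20, adjusted p = 5.25e-05), and higher in the Fmod gate (1.18 ± 0.14, adjusted p = 8.98e-07) and the Inmt gate (1.27 ± 0.13, adjusted p = 1.47e-07).

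The order of the Il11ra1 levels was Cr2, Madcam1, Tnfsf11, Fmod and Inmt. The Tnfsf11 gate lay below the Fmod gate by -0.61 ± 0.17 (adjusted p = 0.0434) and below the Inmt gate by -0.67 ± 0.17 (adjusted p = 0.0213). The Fmod and Inmt gates did not differ beyond their spread (-0.07 ± 0.17, adjusted p = 0.944). After thinning, an Il11ra1 UMI was found in 22.4% ± 3.13 of cells of the Cr2 gate, 32.9% ± 9.11 of the Madcam1 gate, 56.1% ± 2.26 of the Tnfsf11 gate, 73.1% ± 6.16 of the Fmod gate and 70.4% ± 4.55 of the Inmt gate (SD, n = 3 libraries). B cell barcodes, which should lack it and were picked for little stromal RNA, had one in 2.47% ± 1.60. Without thinning the shares ran from 48.7% in the Cr2 gate to 96.0% in the Fmod gate.

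Il6st, the signalling chain gp130, was found in every stromal type. It stood at 355, 379 and 405 CPM in the Cr2 gate, 327, 515 and 320 CPM in the Madcam1 gate, 254, 309 and 203 CPM in the Tnfsf11 gate, 214, 305 and 205 CPM in the Fmod gate and 209, 257 and 187 CPM in the Inmt gate. The Cr2 and Madcam1 gates overlapped each other and both lay above every sum of the last 3 gates. Il6st was higher in the Cr2 gate by 0.54 ± 0.13 (adjusted p = 0.0025) and lower in the Inmt gate (-0.41 ± 0.13, adjusted p = 0.0271). With no removal by contaminant genes, the difference of the Cr2 gate was -0.038 (adjusted p = 0.866), and 0.34 after thinning of each cell to 2000 UMIs (adjusted p = 0.21). Its test across the gates was lost without the 1-IC library (adjusted p = 0.0618). B cell barcodes held 12.4 to 29.8 CPM of Il6st.

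The UMIs of both chains were also set against each other. For each UMI of Il11ra1, 2.87, 1.95 and 2.64 UMIs of Il6st were counted in the Cr2 gate, 0.536, 0.755 and 0.379 in the Tnfsf11 gate, 0.290, 0.555 and 0.282 in the Fmod gate and 0.285, 0.444 and 0.237 in the Inmt gate. In the Madcam1 gate the ratio was 2.15, 2.92 and 1.33, which overlapped the Cr2 gate. In each library it was higher in the Cr2 gate than in the Tnfsf11, Fmod and Inmt gates. Its size is one of 3′ UMIs, not of receptor proteins.

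Osmr, the oncostatin M receptor β chain, did not pass the test between the gates. It stood at 78.3, 194 and 23.6 CPM in the Cr2 gate, at 113, 233 and 160 CPM in the Madcam1 gate and at 105, 144 and 76.6 CPM in the Inmt gate. 2-IC replicate 2 was the highest in each gate, and all gates overlapped. The Cr2 gate differed from the others by -0.41 ± 0.21 (adjusted p = 0.161). Lifr, the LIF receptor, stood at 151, 239 and 145 CPM in the Cr2 gate and 226, 324 and 286 CPM in the Madcam1 gate, and its difference in the Cr2 gate did not pass either (-0.35 ± 0.14, adjusted p = 0.0694). Cntfr, the α chain for CNTF, differed by -0.13 ± 0.21 (adjusted p = 0.721).

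Both chains of the interferon-γ receptor were higher in the Cr2 gate. Ifngr1, the ligand-binding chain, stood there at 348, 277 and 338 CPM and in the Madcam1 gate at 361, 268 and 377 CPM, against 240, 176 and 271 CPM in the Tnfsf11 gate, 265, 229 and 252 CPM in the Fmod gate and 227, 199 and 213 CPM in the Inmt gate. The Cr2 gate lay above every sum of the last 3 gates, and the Madcam1 gate overlapped the Tnfsf11 gate by 2-IC replicate 2. The difference of the Cr2 gate was 0.38 ± 0.12 (adjusted p = 0.0256), and with no removal by contaminant genes it was -0.065 (adjusted p = 0.697). The test of Ifngr1 across the gates was also lost without any 1 library, at adjusted p = 0.223 without 2-IC replicate 1, 0.0636 without 2-IC replicate 2 and 0.0766 without the 1-IC library.

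Ifngr2, the accessory chain that brings JAK2 to the receptor, formed a gradient. It stood at 147, 104 and 181 CPM in the Cr2 gate, 113, 113 and 160 CPM in the Madcam1 gate, 83.3, 70.3 and 104 CPM in the Tnfsf11 gate, 81.6, 73.1 and 72.9 CPM in the Fmod gate and 51.0, 53.6 and 68.0 CPM in the Inmt gate. The Inmt gate lay below every sum of the other gates, while the Cr2 and Madcam1 gates overlapped, as did the Tnfsf11 and Fmod gates, and no neighbours in this order passed the test of their difference. Ifngr2 was higher in the Cr2 gate (0.80 ± 0.15, adjusted p = 0.000138) and lower in the Inmt gate (-0.80 ± 0.14, adjusted p = 0.000177), and both these gates differed from each other by 1.28 ± 0.18. Without barcodes with RNA of B cells, myeloid cells or T cells the difference of the Cr2 gate was 0.55 (adjusted p = 0.0529), and in B cell barcodes Ifngr2 stood at 50.1, 56.9 and 109 CPM.

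After thinning, 33.6% ± 10.4 of cells of the Cr2 gate and 9.54% ± 3.94 of the Inmt gate had an Ifngr2 UMI (SD, n = 3 libraries), against 12% ± 4.52 of B cell barcodes, and without thinning 59.1% and 29.8% of both gates did. UMIs of Ifngr1 and Ifngr2 together were found in 17.4% ± 5.52 of thinned cells of the Cr2 gate, where the product of both shares was 14.4%, and in 3.70% ± 1.38 of the Inmt gate, where it was 2.99%. The pair was thus found about as often as the separate shares give.

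Neither chain of the type I interferon receptor passed the test between the stromal types. Ifnar1 stood at 38.2, 44.7 and 15.7 CPM in the Cr2 gate, at 62.1, 84.6 and 11.4 CPM in the Madcam1 gate and at 27.5, 66.2 and 33.1 CPM in the Fmod gate. Ifnar2 stood at 129, 134 and 173 CPM in the Cr2 gate, at 152, 141 and 274 CPM in the Madcam1 gate and at 200, 148 and 232 CPM in the Fmod gate. Both overlapped between all of these gates, and the difference of the Cr2 gate was -0.33 ± 0.27 for Ifnar1 (adjusted p = 0.426) and -0.27 ± 0.15 for Ifnar2 (adjusted p = 0.235). Ifnar1 was at 35.4 to 69.1 CPM in B cell barcodes, within the range of the stroma, while Ifnar2 was at 30.8 to 40.6 CPM there, below every stromal sum. Ifnar1 rested on few UMIs, and a difference of small size was not detectable at this depth. Of the chromosome 16 neighbours shown above, Ifngr2 thus passed the test across the gates and the others did not, as was so for Il10rb, the IL-10 receptor chain that lies among them (adjusted p = 0.161), and whether their patterns differ was not tested.

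Il1r1, the signalling receptor for IL-1, was lower in the Cr2 gate. It stood there at 102, 200 and 74.6 CPM and in the Madcam1 gate at 175, 169 and 126 CPM, against 186, 504 and 156 CPM in the Tnfsf11 gate, 211, 438 and 172 CPM in the Fmod gate and 219, 426 and 184 CPM in the Inmt gate. In each library the Cr2 gate lay below the last 3 gates, but its value in 2-IC replicate 2 overlapped theirs in the other libraries. Il1r1 was lower in the Cr2 gate by -0.90 ± 0.17 (adjusted p = 0.000251) and higher in the Fmod gate (0.53 ± 0.14, adjusted p = 0.0145) and the Inmt gate (0.58 ± 0.14, adjusted p = 0.00321). Within single libraries the log2 ratio of the Cr2 gate to the mean of the others, with 10 CPM added, was -0.89, -0.91 and -1.002. The high level in 2-IC replicate 2, the deepest library per cell, was also seen at equal depth, where 54.2% of its thinned cells of the Tnfsf11 gate had an Il1r1 UMI, while 2-IC replicate 1 had 29.9% and the 1-IC library 33.8%. The calls in the Fmod and Inmt gates were lost without 2-IC replicate 1 (adjusted p = 0.191 and 0.0509).

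Other chains of the IL-1 receptors, named after their values were seen, were also low in the Cr2 gate. The decoy receptor Il1r2 stood there at 1.82, 20.9 and 11.8 CPM, against 72.2, 81.7 and 86.1 CPM in the Fmod gate, and did not overlap with it. It was lower in the Cr2 gate (-2.47 ± 0.44, adjusted p = 9.66e-05) and higher in the Fmod gate (1.29 ± 0.24, adjusted p = 0.00039). Il1rap, the accessory chain, was lower in the Cr2 gate (-1.76 ± 0.56, adjusted p = 0.0219), where it had 5.46, 8.95 and 0 CPM and rested on few UMIs. In the Madcam1 gate it was at 9.92 ± 2.49 CPM (SD, n = 3 libraries), a difference that did not pass (-0.84 ± 0.70, adjusted p = 0.609).

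Read gate by gate, the Cr2 gate held 6 member calls, the Inmt gate 5, the Fmod gate 3 and the Madcam1 and Tnfsf11 gates 1 each. In the Cr2 gate 4 members were higher (Il4ra, Ifngr2, Il6st, Ifngr1), against 13.5% of all genes, and 2 were lower (Il11ra1, Il1r1), against 10.6%. The median difference was -0.30 over the members and 0.01 over all genes. In the Madcam1 gate 1 member, Il11ra1, was lower, against 3.58% of all genes, and 0 of 10 were higher, against 3.34%. In the Tnfsf11 gate 1 member, Il4ra, was lower (-1.12 ± 0.26, adjusted p = 0.00712), against 2.8%, and 0 were higher, against 4.47%. In the Fmod gate Il11ra1 and Il1r1 were higher, against 7.35%, and Il4ra was lower (-1.25 ± 0.32, adjusted p = 0.00989), against 3.59%. In the Inmt gate the same genes, Il11ra1 and Il1r1, were higher, against 10.6%, and Ifngr2, Il4ra and Il6st were lower, against 6.87%. The lower calls of Il4ra are measured against a mean that holds the Cr2 gate, and its levels in the Tnfsf11, Fmod and Inmt gates overlapped. They were lost without 2-IC replicate 1 in all 3 gates (adjusted p = 0.0802, 0.422 and 0.416) and without the 1-IC library in the Tnfsf11 and Inmt gates (0.0621 and 0.0602).

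**Figure D2:**
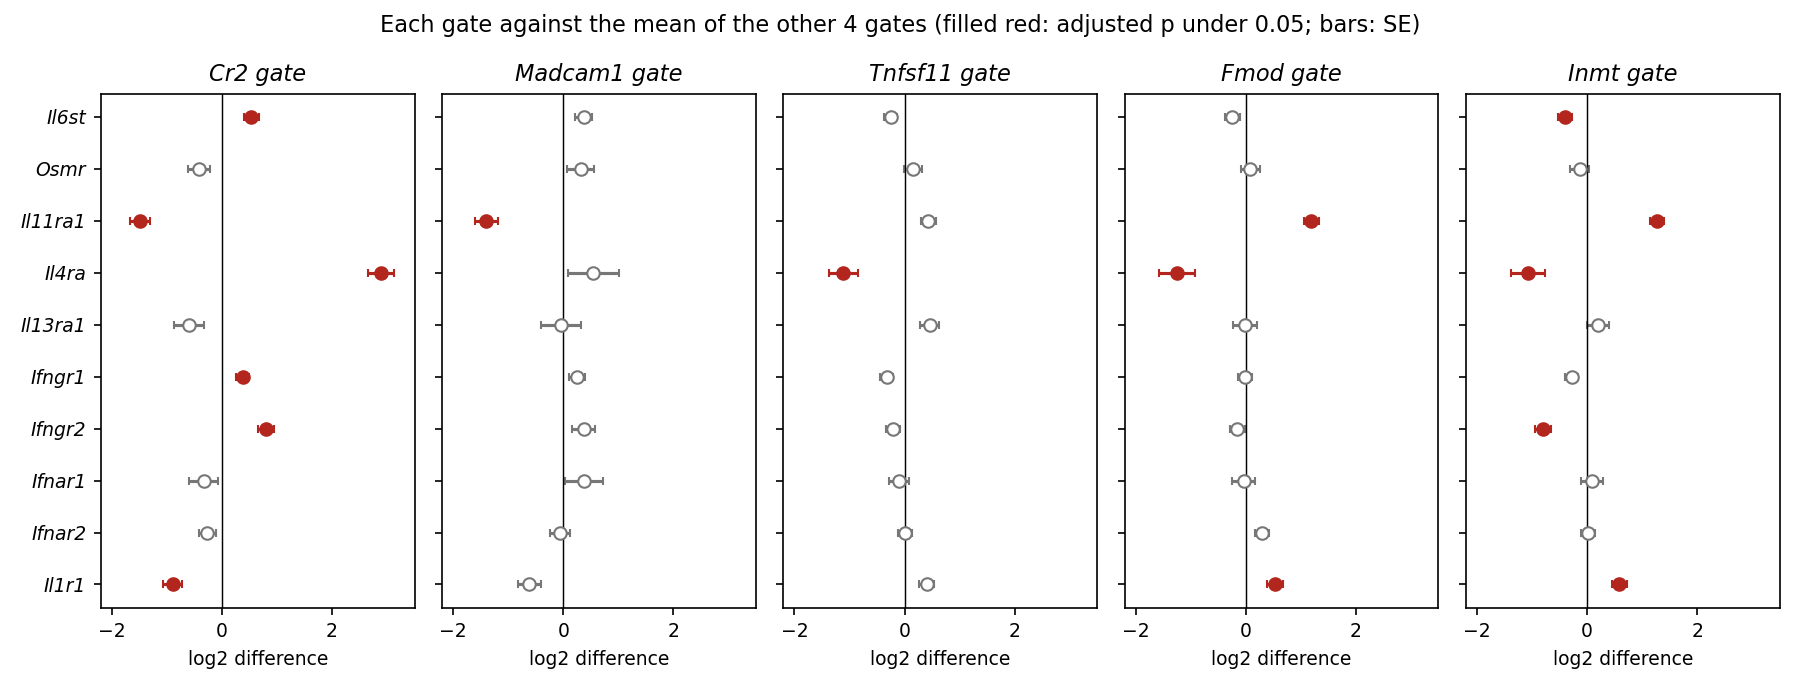
Log2 difference of each gate from the mean of the other gates for the 10 receptor chains (points, with bars of 1 SE from the edgeR fit of 15 sums), filled where the adjusted p was under 0.05. Il4ra in the Cr2 gate (2.90) was the highest value and Il11ra1 in the Cr2 gate (-1.49) the lowest.

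Pairs of gates were also compared, with the share of all genes that differed given beside each count of members. The Cr2 gate differed from the Tnfsf11 gate in 7 members (24.9% of all genes), from the Fmod gate in 5 (25.6%) and from the Inmt gate in 6 (29.7%), but from the Madcam1 gate in 1, Il4ra (5.4%). The Madcam1 gate differed from the Tnfsf11 gate in 2 (7.24%), Il11ra1 and Il1r1 (-0.82 ± 0.22, adjusted p = 0.0228), from the Fmod gate in the same 2 (10.8%) and from the Inmt gate in 4 (13.2%), which added Ifngr2 (0.94 ± 0.24, adjusted p = 0.0079) and Il6st (0.62 ± 0.18, adjusted p = 0.0201). Il11ra1 was the 1 member that set the Tnfsf11 gate apart from the Fmod gate (3.27%) and from the Inmt gate (2.87%). Between the Fmod and Inmt gates 0 members differed in edgeR (2.3%) and 0 in DESeq2 (115 of 8078 genes). In edgeR 1 member, Ifngr2, had an unadjusted p under 0.05 (0.00619), as had 939 of all 8078 genes. The Madcam1 gate held 44 cells in all, which limits what its comparisons could show.

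Cells of the Cr2 gate fell into barcodes rich and poor in Malat1, a nuclear RNA that is low in cells stripped of their nucleus. The limit was 1% of UMIs, which left 58, 18 and 24 Malat1-rich and 25, 9 and 15 Malat1-poor cells per library. The Malat1-poor cells also had fewer UMIs, with medians of 3885, 5890 and 3423 against 7249.5, 14219 and 8831.5. Pericyte markers summed to 1257 to 1971 CPM in Malat1-poor cells, all of it Rgs5 with Notch3 and Mcam at 0, and to 527 to 768 CPM in Malat1-rich cells. Myeloid markers summed to 51.4 to 788 CPM and to 18.0 to 63.4 CPM. FDC markers, Cr2 among them, were also higher in Malat1-poor cells. They summed to 46612 to 52204 CPM there, against 20655 to 43436 CPM in Malat1-rich cells, without overlap. The part of depth, RNA quality and other cells in the differences was not tested.

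In this comparison 9 members could be tested, and Osmr and Il1r1 were lower in Malat1-poor cells, 2 of 9 against 11.3% of 2994 genes. None was higher, against 5.18%. Osmr stood at 88.4, 231 and 29.3 CPM in Malat1-rich cells and at 37.0, 17.1 and 0 CPM in Malat1-poor cells, where its counts were 4, 1 and 0 UMIs and 0 allows up to 60.6 CPM. Both groups overlapped across libraries, and Malat1-poor cells were lower in 3 of 3 libraries (-2.45 ± 0.62, adjusted p = 0.0229). Il1r1 stood at 118, 227 and 82.9 CPM against 37.0, 68.6 and 40.4 CPM, with no overlap (-1.75 ± 0.43, adjusted p = 0.0189), on 4, 4 and 2 UMIs. Il6st (-0.99 ± 0.32, adjusted p = 0.0566), Il4ra (-0.59 ± 0.41, adjusted p = 0.336) and Ifngr2 (-0.05 ± 0.33, adjusted p = 0.928) did not pass, and the median was -0.61 over the members and -0.08 over all genes. Without Malat1-poor barcodes the Cr2 gate kept its differences in Il4ra (2.96), Il11ra1 (-1.43) and Il1r1 (-0.73). Neither call held in every setting. Without 2-IC replicate 2 no member passed, but neither did any of 2478 genes. Without the 1-IC library 0 members and 238 of 3122 genes passed, and without 2-IC replicate 1 it was 1 member and 361 of 2159 genes.

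**Figure D3:**
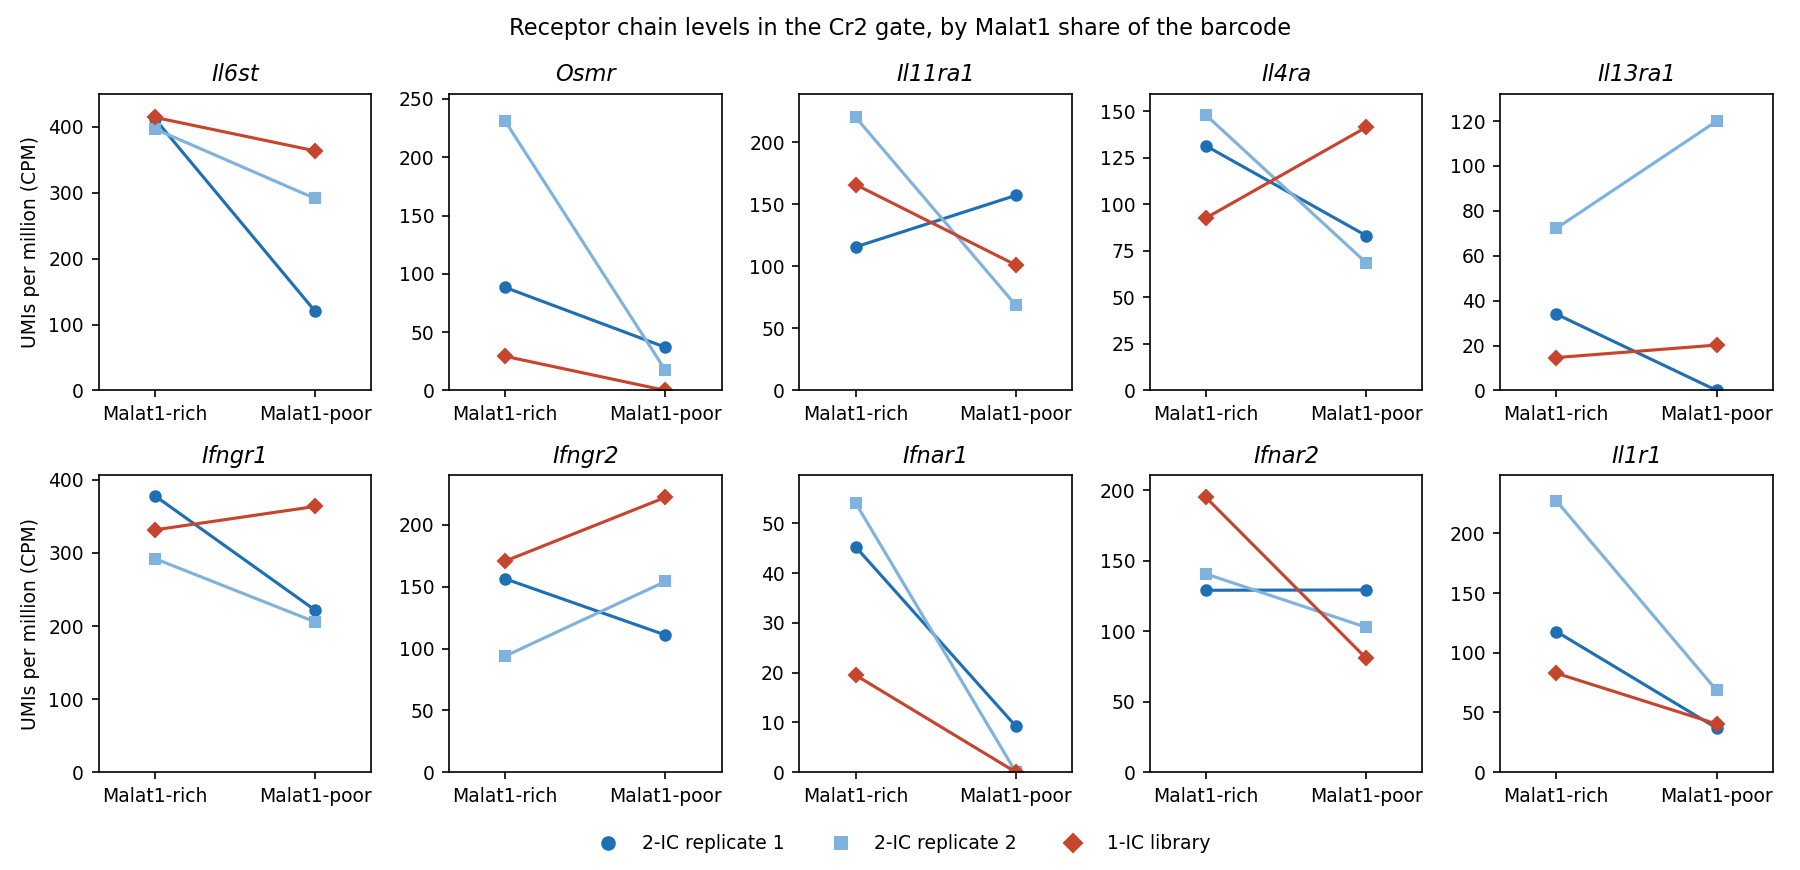
Levels of the receptor chains (CPM) in Malat1-rich and Malat1-poor cells of the Cr2 gate, with 1 line per library joining its 2 values. Il1r1 was lower in Malat1-poor cells of each library, and Ifngr2 was higher there in the 1-IC library and in 2-IC replicate 2.

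The 1-IC library was set against the 2-IC libraries over all retained cells, to ask whether receptor levels differed with a first IC 7 days earlier. With 1 library in a group there is no test, and genes of at least 50 CPM were counted where both libraries stood 2-fold or more apart. Against 2-IC replicate 1, 0 of 8 members were 2-fold apart (2.35% of 3109 genes). Against 2-IC replicate 2, 2 of 9 were (12.2% of 3440 genes), and the replicates of the 2-IC group themselves differed by this much in 1 of 9 (5.51% of 3395 genes). The short descriptions of the 2-IC libraries conflict on time, so their difference may not be one between replicates.

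Il1r1 stood at 196 and 458 CPM in the 2-IC replicates and at 156 CPM in the 1-IC library. Its log2 ratio of 1-IC to 2-IC replicate 2 was -1.55 (95% interval from counting error alone, -1.73 to -1.38), and that of 2-IC replicate 1 to replicate 2 was -1.23 (-1.32 to -1.14). Osmr stood at 111, 196 and 87.5 CPM, with a ratio of -1.17 (-1.40 to -0.94) to 2-IC replicate 2. For both genes the 1-IC value lay below both 2-IC values, by -0.33 (-0.50 to -0.15) for Il1r1 and -0.34 (-0.58 to -0.10) for Osmr from 2-IC replicate 1, which was less than the 2-IC replicates differed from each other (-1.23 and -0.83). Ifngr2 stood at 78.0, 70.4 and 107 CPM and Il13ra1 at 65.2, 72.1 and 46.5 CPM, so that the 1-IC library again lay outside the 2-IC libraries, by 0.46 (0.23 to 0.68) and -0.49 (-0.82 to -0.17) from the nearer one, both under 2-fold. Il11ra1 ranged from 455 to 568 CPM, Ifngr1 from 200 to 281 CPM and Il4ra from 21.5 to 27.2 CPM. These values pool all stromal types, whose mix differed between libraries. The Cr2 gate held 83 of 1526, 27 of 391 and 39 of 326 retained cells. The part of this mix in the differences was not tested. By gate, 2-IC replicate 2 had the highest Osmr and Ifnar1 and the lowest Ifngr1 of the 3 libraries in all 5 gates.

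**Figure D4:**
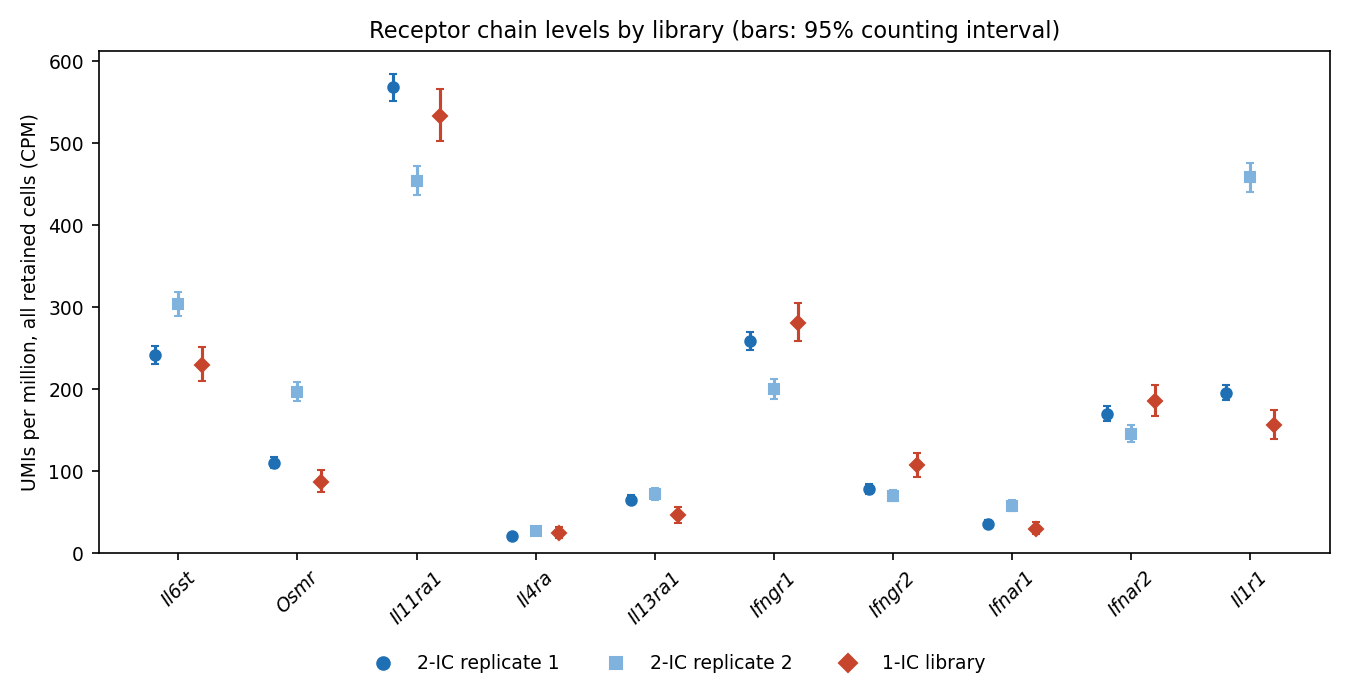
Level of each receptor chain (CPM) over all retained cells of the 2-IC replicate 1, 2-IC replicate 2 and 1-IC libraries. Bars give the exact 95% binomial interval of counting error. Il1r1 and Osmr were highest in 2-IC replicate 2 (458 and 196 CPM), and the 1-IC library lay near 2-IC replicate 1.

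The genes around these receptors were counted from a list of 81 genes, of which 43 could be tested and 10 had 0 UMIs in the gated cells. Across the gates 13 of the 43 differed, against 28.2% of all genes. The Cr2 gate was higher in 2 and lower in 10 of them (13.5% and 10.6% of all genes), the Madcam1 gate in 1 and 3 (3.34% and 3.58%), the Tnfsf11 gate in 7 and 2 (4.47% and 2.8%), the Fmod gate in 9 and 1 (7.35% and 3.59%) and the Inmt gate in 9 and 2 (10.6% and 6.87%). Of 13 tested chains outside the members, Il2rg was higher and Lepr, Il1r2, Il1rap and Ghr were lower in the Cr2 gate. Lepr, the leptin receptor, stood there at 29.1, 182 and 11.8 CPM and in the Tnfsf11 gate at 912, 883 and 675 CPM, without overlap (Cr2 gate -2.65 ± 0.36, adjusted p = 2.44e-06). Lepr was also lower in the Madcam1 gate (-2.12 ± 0.40, adjusted p = 0.0012), at 96.9 ± 64.6 CPM (SD, n = 3 libraries).

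Of 19 ligands 3 could be tested and 7 had 0 UMIs in the 1514 gated cells, among them Il4, Il13, Ifng and Ifnb1. Cells in no gate were not counted here. The tested ligands, Il33, Il7 and Il6, were each higher in the Tnfsf11, Fmod and Inmt gates (4.47%, 7.35% and 10.6% of all genes). Each of these calls is measured against a mean that holds the Cr2 and Madcam1 gates. Il33, an alarmin of the IL-1 family, was at 159 ± 77.1 CPM in the Cr2 gate, 412 ± 94.1 CPM in the Madcam1 gate and 651 ± 435 CPM in the Tnfsf11 gate (SD, n = 3 libraries). It was lower in the Cr2 gate (-1.78 ± 0.19, adjusted p = 2.89e-08). Il7, a survival factor of T cells, was at 136, 138 and 92.8 CPM in the Fmod gate, with its lowest value within the range of the Inmt gate (68.0 to 94.5 CPM). It was higher in the Fmod gate by 2.06 ± 0.19 (adjusted p = 4.84e-08). Il6 was at 46.4, 25.3 and 11.3 CPM in the Inmt gate and had 0 UMIs in the Madcam1 gate.

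Of 10 tested kinases and STAT factors 1, Jak2, differed across the gates, against 28.2% of all genes. Of the most abundant ones Jak1 did not pass in the Cr2 gate (0.06 ± 0.14, adjusted p = 0.826) and Stat3 was lower (-0.52 ± 0.18, adjusted p = 0.0359). Stat6, the factor that acts below Il4ra and named after its value was seen, differed by 0.38 ± 0.19 (adjusted p = 0.162). Of 10 tested inhibitors 5 differed across the gates, against the same 28.2%, and these counts are small. Socs3, which binds gp130 and is induced by STAT3, stood at 151, 310 and 165 CPM in the Cr2 gate and 961, 630 and 904 CPM in the Inmt gate, without overlap, and was lower in the first (-1.14 ± 0.26, adjusted p = 0.0016) and higher in the second (1.46 ± 0.20, adjusted p = 7.78e-06). Usp18, an inhibitor of the type I interferon receptor, was lower in the Cr2 gate (-0.49 ± 0.18, adjusted p = 0.0484), and Socs1, named after its value was seen, was higher (0.89 ± 0.24, adjusted p = 0.00613). Socs2, which acts on growth hormone signals, did not pass there (0.28 ± 0.22). Of 7 tested genes of IL-1 receptor signalling 0 differed across the gates (28.2% of all genes). In the Cr2 gate 1 was lower (10.6%) and in the Inmt gate 2 were higher (10.6%). Nfkbia, which NF-κB induces, did not pass in the Cr2 gate (0.03 ± 0.12, adjusted p = 0.885), was higher in the Inmt gate (0.37 ± 0.11, adjusted p = 0.0219) and was lower in Malat1-poor than in Malat1-rich cells (-1.60 ± 0.23, adjusted p = 0.00187). Myd88, the adaptor of the receptor and named after its value was seen, was lower in the Cr2 gate (-0.89 ± 0.32, adjusted p = 0.0469) and higher in the Inmt gate (0.63 ± 0.21, adjusted p = 0.0341).

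Likeness of pattern was measured as Pearson's r over the 15 sums, after the mean of each library was taken off, among 2981 genes. The points share libraries and cells, so r is a description. Il11ra1 was most like Thbs2 (r = 0.984) and Oat (0.975), Il4ra was most like Fcgr2b (0.951) and Marcksl1 (0.945), and Ifngr2 was most like Lxn (0.981) and Hipk2 (0.958). For Il6st these genes were Hipk2 (0.954) and Vamp5 (0.939), for Ifngr1 Chmp6 (0.918) and Cilp (0.915), and for Il1r1 Gm13889 (0.964) and Gm12407 (0.963). Among the members, Il6st ran with Ifngr2 (r = 0.90) and against Il1r1 (-0.94) and Il11ra1 (-0.89), while Il11ra1 ran with Il1r1 (0.88) and Ifngr1 with Ifngr2 (0.85).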

How the data were processed

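Sorted stromal cells of mouse lymph nodes were measured by 10x Genomics 3′ sequencing in 3 libraries, 2 of the 2-IC and 1 of the 1-IC group. The short descriptions of the 2-IC libraries conflict on the time of the IC, and their titles were used. The authors aligned the reads with Cell Ranger (5.0.0 in the file header) to GRCm38 with Ensembl annotation and deposited UMI counts per gene and barcode, without normalization, for barcodes kept as cells. The counts do not separate overlapping transcripts, and levels are not compared between genes, as a ratio of UMIs of 2 chains is read between gates only. The members, gene lists and tests were chosen with earlier results of these data known.

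Barcodes with at least 200 genes, at most 10% mitochondrial UMIs and 0 UMIs of 13 contaminant genes were retained (Python 3.11.15, numpy 2.4.6, scipy 1.17.1, scanpy 1.11.5). Gates were applied in order: at least 2 UMIs of Cr2, 2 of Madcam1, 1 of Tnfsf11, 1 of Fmod and 2 of Inmt. Each gate required the earlier gate genes at 0 UMIs. A cell with UMIs of a gate gene under its limit entered no later gate. Counts were summed per library and gate of at least 5 cells, and CPM are counts per 1000000 UMIs of a sum. The sums were tested with edgeR 4.0.16 (R 4.3.3, limma 3.58.1; TMM, filterByExpr, quasi-likelihood test, library as a block, Benjamini-Hochberg adjusted p under 0.05 over all genes), once for the 5 gates (15 sums, 8 residual degrees of freedom) and once for the Cr2 gate split at 1% Malat1 (6 sums). The block was used because all gates of a library were cut from 1 suspension. The procedure was tested on simulated counts with known changes. Intervals (95%) are exact and cover counting error only, as does the limit of 3 counts for a count of 0, and depth is given with the libraries. Shares were also taken after thinning to 2000 UMIs. Scrublet was run as an alternative and called 1, 4 and 12 doublets. B cell barcodes had at least 3 UMIs of Cd79a and Cd79b together, 0 of Pdpn and at most 2 of Col1a1, Col1a2 and Col3a1 together. Barcodes with more stromal RNA were thus left out of them, which by itself lowers stromal genes there. Alternatives covered the filters, gate limits, depth, doublets, normalization, DESeq2 1.42.0, the block and each library left out, and those leaving out other cells' RNA, shared barcodes, Malat1-poor barcodes and sums under 10 cells were added after seeing the data. Named beside the members were the gate genes, the 3 most abundant genes of each role in a list of 81 pathway genes and the 2 genes most like each called member. Of the pathway genes that this rule names, 1 is not reported here. Other names were chosen after their values were seen and are said to be so where they occur, as are Il1r2, Il1rap, Ghr, Jak2 and Il10rb.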

Additional observations from a re-analysis of the deposited data

How the results depend on the processing

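Over 18 alternatives, Il4ra, Il11ra1 and Ifngr2 stayed called across the gates, and Il4ra stayed higher in the Cr2 gate (2.12 to 3.04). Of the single member values 360 stayed on their side of the threshold, 64 lost the call and 2 reversed, all counted over members called at first. The reversed ones were Il6st (-0.038) and Ifngr1 (-0.065) in the Cr2 gate with no removal by contaminant genes. The cause was not tested. The Inmt call of Il6st was lost in 11 of 18. Without the replicate block 3 members were called across the gates (6 with it), 3 in the Cr2 gate (6), 0 in the Tnfsf11 gate (1), 1 in the Fmod gate (3), 2 in the Inmt gate (5) and 0 in the Malat1 split (2). Over all genes 1212 were called across the gates without it, 1115 in the Cr2 gate, 56 in the Tnfsf11 gate, 234 in the Fmod gate, 544 in the Inmt gate and 204 in the split. In the Madcam1 gate (1) there were 2 without TMM and 2 with no low-count filter, where without TMM the median of all genes moved from -0.03 to 0.13. Over all genes 559 of 8078 were called without TMM, as at first, and 696 of 22029 with no low-count filter. In the Tnfsf11 gate (1) there were 2 with sums of at least 10 cells, 2 after thinning, 2 without shared barcodes, 2 with DESeq2, 3 with no removal by contaminant genes, 3 without TMM, 4 with no low-count filter and 0 without barcodes with RNA of B, myeloid or T cells. Over all genes 587 of 8078 were called there at first. In the order given, it was 588 of 8896, 287 of 2583, 605 of 8137 and 383 of 8078. Then it was 534 of 11607, 625 of 8078, 756 of 22029 and 386 of 7538. In the Inmt gate (5) there were 3 with a limit of 1 UMI for every gate, beside 1159 of 8531 genes (1410 of 8078 at first). In the Malat1 split (2) there were 4 with no removal by contaminant genes, 1 after thinning, and 0 without barcodes with other cells' RNA, at a Malat1 limit of 2% or with DESeq2. Over all genes, DESeq2 aside, it was 1084 of 5801, 187 of 697, 31 of 1968 and 324 of 3541 in this order (494 of 2994 at first). Leaving out 1 library in turn gave 0 to 3 in the Tnfsf11 gate (0 without 2-IC replicate 1 or the 1-IC library, 3 without 2-IC replicate 2), 1 to 3 in the Fmod gate (1 without 2-IC replicate 1), 2 to 5 in the Inmt gate (2 without 2-IC replicate 1, 3 without the 1-IC library) and 0 to 1 in the Malat1 split. The calls over all genes also fell. Without 2-IC replicate 1, 99 of 6371 genes were called in the Tnfsf11 gate, 242 in the Fmod gate and 549 in the Inmt gate. At first 884 and 1410 of 8078 were called in the last 2. In the Tnfsf11 gate 567 of 7434 were called without 2-IC replicate 2 and 383 of 10324 without the 1-IC library. At a minimum of 200 CPM, 1 member was 2-fold apart between the 1-IC library and 2-IC replicate 2 (2 at 50 CPM), beside 13.4% of 790 genes, and 3 were at a mitochondrial limit of 5%, beside 12.2% of 3436 genes. Between the 2-IC replicates 2 of 8 members were 2-fold apart after thinning, beside 275 of 3436 genes. Before thinning it was 1 of 9 members, beside 187 of 3395 genes. The Madcam1 gate held few cells and the Malat1-poor barcodes were shallow, which limits their precision.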

Other observations

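The 729 retained cells in no gate entered the comparison of libraries but no comparison between gates. Over the 3 libraries (mean ± SD) they held Il11ra1 at 524 ± 75.7 CPM, Il1r1 at 319 ± 221 CPM, Il6st at 236 ± 37.1 CPM, Ifngr2 at 79.8 ± 20.1 CPM and Il4ra at 27.6 ± 12.5 CPM. Their Il11ra1 level lay between those of the Tnfsf11 gate (473 ± 62.3 CPM) and the Fmod gate (673 ± 106 CPM). Il4ra stood above its mean in the Tnfsf11, Fmod and Inmt gates (12.2 ± 6.49, 13.1 ± 5.11 and 12.5 ± 8.10 CPM) and below that of the Cr2 gate (119 ± 16.2 CPM). None of these differences was tested. The cells in no gate were shallow, with median UMIs of 3165, 3295 and 3257. Cells with Cr2 UMIs under the gate limit were among them. B cell markers summed to a median over libraries of 1326 CPM in them (69.2 to 1746). That median was 164, 172 and 254 CPM in the Tnfsf11, Fmod and Inmt gates. The part of such cells and of B cell RNA in their Il4ra level was not tested.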
